A study of Mus musculus with 15 samples.

Results

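The probes described here are the 1209 non-control probes of a one-colour mouse array that carry the name of a cDNA sequence record, such as BC040767_P1. They were chosen by name alone: every probe with a control code, an ASMM9PARTA code, a lincRNA exon name, a mouselinc or humanlinc name, or one of the 3 PI design codes (PI426073487, PI419532418, PI426409190) was left out. They make up 1209 of 59709 distinct probes, and each stands for a different record, with 1 spot per array. The files give these probes no gene symbol, position or sequence, and 0 of the 1209 records matched an accession in the RefSeq gene table used here (assembly GRCm38.p6). They are therefore named by record. That they are noncoding is the working description of the class, and nothing in the files tests it.

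The arrays measured Cy3-labelled RNA from brain of mice on a C57BL background. By the labels, 3 mice were wild type (WT), with no age given, and 4 further groups of 3 were APP/PS1 mice aged 1, 3, 6 or 9 months. APP/PS1 mice carry transgenes for mutant amyloid precursor protein and presenilin 1 and are used as a model of Alzheimer's disease. The promoter of the transgenes and the pooling of animals are not given in the sources used here. The series text speaks of age-matched controls, but no label gives the age of the WT samples. Age and genotype therefore cannot be told apart in any comparison against WT. All 4 of those comparisons also use the same WT samples. By its label 1 sample of each group came from a male and the others from females, whereas the series text speaks of males. In a limma fit with labelled sex as a term, 0 of 741 tested members passed (69 at an unadjusted p under 0.05). Over all 45901 probes tested, 0 passed and 3713 had an unadjusted limma p under 0.05.

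A cDNA record is a stretch of sequence copied from RNA that was once cloned from a tissue. An expressed sequence tag (EST) is a single read from one end of such a clone, while full-length cDNA collections, such as the RIKEN clones whose records mostly start with AK and the Mammalian Gene Collection whose records start with BC, aimed at whole transcripts. Long noncoding RNAs were first catalogued largely from such collections. Many ESTs also come from the ends of protein-coding transcripts, from introns or from genomic carry-over, so a record's name does not say what kind of RNA it reads. By prefix, 692 members are GenBank ESTs, 342 are DDBJ ESTs, 93 are AK records, 49 are BX or CR records, 16 are BC records and 17 are other direct submissions.

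Scanner files of 14 arrays were used, 2 of WT and 3 of each age. The third WT sample had no scanner file among those used and entered no comparison. At 1, 3 and 6 months the arrays of replicates 2 and 3 were near-identical. Their residuals over the negative probes correlated at 0.800 to 0.825, where no other pair of arrays exceeded 0.240, and each pair with a correlation above 0.5 was averaged and counted as 1 sample. The median difference within these pairs was 0.189 to 0.244 of the scanner's own error, and that of the 10 remaining within-group pairs was below this error too, at 0.499 to 0.844. The fit thus held 11 samples, with 3 at 9 months and 2 in every other group. Nothing says that the samples of a group came from separate preparations beyond the separate labels, so p-values measure the spread between these samples. The 9-month arrays were all scanned at 354 V, and no other array was, so scan setting and age cannot be told apart at 9 months. Of 26 brain cell type markers, 0 are named on the array, so the labelled tissue could not be checked by them. In the same way, fewer cells of a type and less RNA per cell cannot be told apart in whole brain.

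A probe counts as detected when the scanner software flagged it well above background. Of the 1209 members, 533 (44.1%) were detected on all 14 arrays, 414 on some and 262 (21.7%) on none. Over all 59709 probes, 61.9% were detected on all arrays and 12.2% on none. Detection differed by kind of record. It was complete for 60 of 93 AK records (64.5%) and 10 of 16 BC records (62.5%), and for 159 of 342 DDBJ ESTs (46.5%) and 270 of 692 GenBank ESTs (39.0%). The full-length cDNA records were thus detected more often than the ESTs on these arrays. The lincRNA exon probes lay between, with 51.0% detected on all arrays, and the human-derived lincRNA probes lowest, with 27.0%.

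The number of detected members also differed between arrays. It was 639 and 615 on the WT arrays, 702, 740 and 714 at 1 month, 623, 694 and 650 at 3 months, 741, 847 and 824 at 6 months, and 625, 742 and 771 at 9 months. All 3 arrays at 6 months lay above both WT arrays, and so did those at 1 month, while those at 3 and 9 months overlapped with WT. Over all spots, 68.1% to 69.2% were detected in WT and 76.7% to 82.4% at 6 months. In pairs of groups, 90 members were detected on all arrays at 6 months and on none in WT, and 0 the other way. The counts were 40 and 0 for 1 month, 11 and 1 for 3 months, and 26 and 1 for 9 months. WT had fewer arrays than each age, so none in WT asked for fewer undetected arrays than none at an age. The directions of a pair are therefore not alike. Such pairs were counted for the members alone, so whether the members differ from all probes in these counts was not tested. The detection gap over the whole array moves with these counts, and its part in them was not tested.

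**Figure D1:**
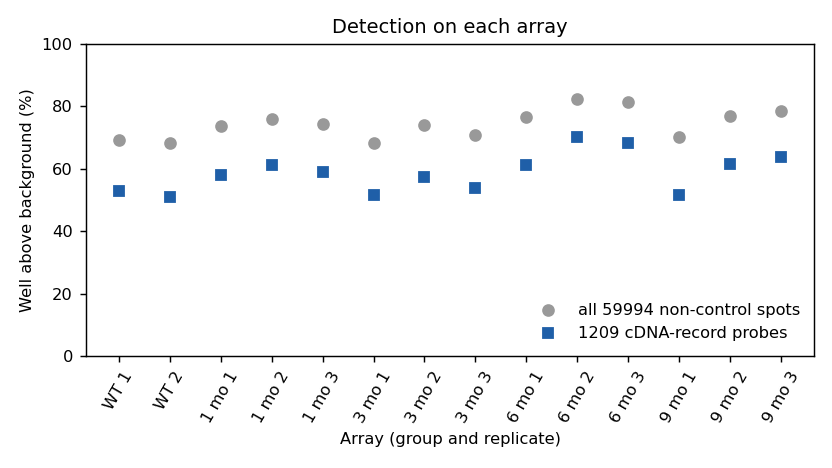
Percent of spots well above background on each of the 14 arrays (x axis, by group and replicate), for the 1209 members (blue squares) and all 59994 non-control spots (grey circles). The members lie below all spots on every array, from 50.9% to 70.1% against 68.1% to 82.4%, and both are highest on replicates 2 and 3 at 6 months. Those arrays are near-identical.

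Levels are given as log2 of the scanner's processed signal minus the 75th percentile of that array, so a probe at 0 has the signal of that percentile. A level depends on the probe as well as on the RNA and is compared only within a probe. Undetected members can share a value in a sample. At 1 month BC156060_P1 and CJ317124_P1 both lay at -7.17 and -7.18, and at 6 months BC040767_P1 and AV495601_P1 at -7.45 and -7.62. Such values are read as a floor of the signal, so a difference or spread that involves them is not a measured size. The limma fit pools the spread over the groups, so each p-value of such a member rests in part on these values. In all, 741 members were tested. The filter on dim probes, which asks for detection on all arrays of at least 1 group, removed 462, and 6 were left out for a flagged spot. A member kept only through the group where it is high had to differ from the others, and WT had to show detection on 2 arrays where each age needed 3. The counts below describe the members that were tested and are read beside the share of all 45901 probes tested in the same fit. The median spread between samples of a group was 0.34 among the dimmer members tested and 0.13 among the brighter, split at the median level, so the brighter members carry the firmer values.

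The 6 members of highest level were detected on all 14 arrays. AV131371_P1 lay between 8.51 and 8.76 over the 11 samples and BY652007_P1 between 8.36 and 8.63, and neither passed the limma test in any of the 5 comparisons. BB761138_P1 lay between 7.81 and 8.10 in the 8 samples of WT and 1 to 6 months and between 8.39 and 8.58 at 9 months, so the 9-month samples were the highest without overlap. It rose by 0.58 (SE 0.10) at 9 months against WT (limma adjusted p = 0.0046). AK216629_P1 rose by 0.43 (SE 0.12) at 9 months, and AK215547_P1 fell by 0.54 on the log2 scale (SE 0.14), from 8.30 and 8.30 in WT to 7.78, 7.74 and 7.75. Both calls were lost without WT replicate 2 (limma adjusted p = 0.182 and 0.085) and without 9 months replicate 2 or 3 (0.0545 to 0.0652). That of AK216629_P1 was also lost without 9 months replicate 1 (0.0732) and that of AK215547_P1 without WT replicate 1 (0.0876). CA531583_P1 lay between 7.06 and 7.74 and passed in no comparison.

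The comparison of 1-month APP/PS1 mice with WT asks about the brain of young transgenic animals. At 1 month 39 members were higher than WT and 18 lower at an adjusted p under 0.05, or 5.26% and 2.43% of those tested. Over all probes tested, 4.95% were higher and 4.67% lower. The members' median log2 difference was 0.04, against 0.01 over all probes. Of the 39 higher members, 15 were detected on no WT array.

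BC040767_P1, a Mammalian Gene Collection record, showed the largest rise at 1 month. It lay at -6.76 and -6.38 in WT, not well above background, and at -0.34 and -0.55 at 1 month, where all 3 arrays detected it. The 1-month level was at least 16.9-fold higher than in WT, a bound set against the lowest signal that counts as detected on each WT array (limma adjusted p = 1.4e-06). With another background correction (normexp) the log2 difference was 1.87, below this bound, and still called. The other large rises were of dim probes. AF282719_P1 went from -6.73 and -6.64 to -4.18 and -3.31, at least 1.71-fold, CR518586_P1 from -6.41 and -5.39 to -3.22 and -3.70, at least 2.08-fold, and CN686219_P1 from -5.01 and -5.45 to -2.97 and -3.02, at least 2.87-fold. WT arrays detected none of these 3, and normexp gave log2 differences of -0.13, -0.10 and 0.0082 with no call. AF282719_P1 and CN686219_P1 passed the filter on dim probes only through 1 month, where they were high. Their calls at 1 month therefore add no support. The rise of CR518586_P1 was also lost without 1 month replicate 1 or 2 or WT replicate 1 (limma adjusted p = 0.0956, 0.053 and 0.0724).

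Of the 18 falls at 1 month, 15 were of the brighter members. AK139568_P1 lay at -0.12 and -0.13 in WT and at -2.42 and -2.47 at 1 month, detected on every array, with samples of each group nearly at the same value. It fell by 2.32 on the log2 scale (SE 0.08, limma adjusted p = 8.7e-06). AK029714_P1 lay at 0.21 and 0.30 in WT and at -1.55 and -1.55 at 1 month, and fell by 1.80 (SE 0.12). It was low at 1 month alone: the other 9 samples lay between 0.21 and 0.92. CD563094_P1, an EST among the dimmer members, fell by 1.87 (SE 0.21), from -2.81 and -2.63 to -4.76 and -4.42. BC156060_P1 was called lower by 1.57 on the log2 scale too, but neither group detected it, so its order there is not a measured change.

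The count of 57 at 1 month depended on the samples in the fit. It was 22 without 1 month replicate 1, 24 without replicate 2, 30 without WT replicate 1 and 7 with the 2 groups alone, where AK139568_P1, AK029714_P1 and BC040767_P1 still passed (limma adjusted p = 0.0237, 0.0336 and 0.0185) and CD563094_P1 did not (0.0581). With normexp 16 members were higher and 36 lower. Over all probes, 2273 were higher and 2144 lower in the main fit, and 1043 and 3049 with normexp. Quantile normalization gave 31 and 19.

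At 3 months 48 members were higher than WT and 22 lower (6.48% and 2.97%), beside 7.18% and 4.26% of all probes. BC040767_P1 lay at -1.73 and -1.50, lower than at 1 month but at least 7.46-fold above WT. The limma adjusted p was 4.5e-06, and normexp gave a log2 difference of 1.04, below this bound and still called. AK139568_P1 remained low at -1.87 and -1.93, a fall of 1.77 on the log2 scale (SE 0.08) against WT. BX520759_P1 fell by 1.38 (SE 0.17), from -2.68 and -2.60 to -3.81 and -4.23, and had already been lower at 1 month, at -4.02 and -4.39. These 2 falls are of members detected on all arrays of both groups. That of BX520759_P1 was lost with the 2 groups alone (limma adjusted p = 0.0838).

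The other rises named at 3 months were of ESTs that no WT array detected. BI180507_P1 lay at -6.0 and -4.48 in WT and -2.79 and -2.47 at 3 months, at least 3.69-fold higher, BU962743_P1 at -6.40 and -5.27 against -3.25 and -3.94, at least 1.89-fold, and AI503337_P1 at -6.02 and -6.74 against -4.36 and -4.0, at least 1.26-fold. The WT samples of the first 2 lay more than 1 log2 unit apart. None of the 3 calls held with normexp, where the log2 differences were 0.35, 0.01 and -0.17. That of BU962743_P1 (limma adjusted p = 0.0486) was lost in 16 of 23 alternatives, among them the omission of any one sample other than 9 months replicate 1 (0.0593 to 0.217). AK138338_P1 and CF723729_P1 were called lower by 1.70 and 1.47 on the log2 scale, but neither was detected on any WT or 3-month array. Both were detected on all 3 arrays at 6 months.

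The count of 70 at 3 months was 34 without 3 months replicate 1, 41 without WT replicate 1, 45 without WT replicate 2 and 8 with the 2 groups alone. Normexp gave 16 higher and 17 lower, and quantile normalization 38 and 27. Over all probes, 3296 were higher and 1954 lower in the main fit, and 1347 and 1099 with normexp.

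At 6 months 95 members were higher than WT and 37 lower (12.8% and 4.99%), beside 13.8% and 9.24% of all probes. The members' median log2 difference was 0.0995, against 0.07 over all probes. Of the 95 higher members, 29 were detected on no WT array, and the 6-month arrays detected more of all spots than the WT arrays, as given above. Whether that gap accounts for part of the count was not tested.

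BC156060_P1, a Mammalian Gene Collection record, was detected at 6 months alone. It lay at -1.68 and -0.90 there, and between -7.18 and -5.55 in the other 9 samples, none of which detected it. The level was at least 9.37-fold higher than in WT (limma adjusted p = 9.1e-05). By normexp the log2 difference was 1.16, below this bound. CJ317124_P1, an EST, showed the same detection at a lower level, at -3.35 and -3.46 at 6 months and between -7.38 and -6.58 elsewhere. It was at least 2.16-fold higher than in WT, but its normexp difference was -0.09 with no call. BC156060_P1 and CJ317124_P1 passed the filter on dim probes only through 6 months, where they were high. Their calls at 6 months therefore add no support. BI180507_P1 and BU962743_P1 were again higher, at least 2.94-fold and 2.68-fold, and normexp put both near 0 (-0.02 and -0.01). The call of BU962743_P1 was lost without 6 months replicate 1 and without WT replicate 1 (limma adjusted p = 0.0615 and 0.0771).

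BB202824_P1 showed the largest fall at 6 months among members that both groups measured. This EST lay at -2.82 and -2.58 in WT, and at -5.47 and -5.04 at 6 months, where 1 of 3 arrays detected it. It fell by 2.55 on the log2 scale (SE 0.20, limma adjusted p = 0.00015). AK039249_P1 fell by 1.39 (SE 0.10), from 0.57 and 0.71 to -0.66 and -0.84. At 1 month the same member had been called higher than WT by 0.87 (SE 0.10), at 1.58 and 1.45, a call lost with the 2 groups alone. BG794789_P1 fell by 1.21 (SE 0.14), from -1.28 and -1.30 to -2.69 and -2.31. AV495601_P1 was called lower but was detected in neither group. The falls of BB202824_P1, AK039249_P1 and BG794789_P1 were called in all 23 alternatives, the 2 groups alone included.

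**Figure D2:**
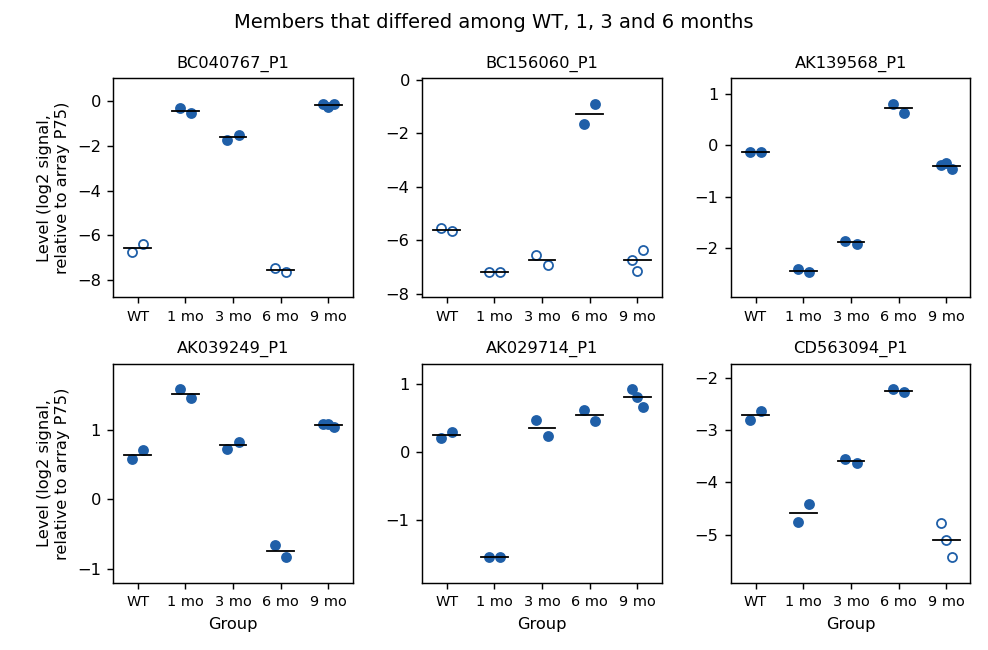
Levels (y axis, log2 signal relative to the array's 75th percentile) of 6 members in each of the 11 samples, by group; bars are group means, filled points are groups detected on all their arrays and open points are groups detected on none. BC040767_P1 is detected at 1, 3 and 9 months and BC156060_P1 at 6 months alone, while AK139568_P1 runs from -2.47 at 1 month to 0.81 at 6 months.

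The count of 132 at 6 months was 74 without WT replicate 1 and 27 with the 2 groups alone. With normexp 38 members were higher and 130 lower. Quantile normalization gave 75 and 44. The turn with normexp was not particular to the members: over all probes 6312 were higher and 4241 lower, and with normexp 3579 and 8322.

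At 9 months 110 members were higher than WT and 98 lower (14.8% and 13.2%), beside 18.5% and 14.6% of all probes. BC040767_P1 lay at -0.13, -0.26 and -0.12 and was at least 20.3-fold higher than in WT, with a log2 difference of 2.13 by normexp, below this bound. CJ058094_P1, an EST detected on every array, lay at -4.28 and -4.26 in WT and at -1.20, -1.43 and -1.28 at 9 months, and rose by 2.97 on the log2 scale (SE 0.15, limma adjusted p = 1.2e-05). AK138796_P1 rose by 2.88 (SE 0.12), from -2.83 and -2.88 to 0.13, -0.06 and 0.02. The 9-month samples of CJ058094_P1 and AK138796_P1 lay above all 8 other samples. With normexp these rises were 1.02 and 1.78 and were still called. AA791803_P1 was detected on no WT array and on 2 of 3 at 9 months. It was at least 1.16-fold higher, and turned to -0.27 with normexp.

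BI853964_P1 and BQ128792_P1, a pair of ESTs detected on every array, fell most at 9 months. BI853964_P1 lay at -0.20 and -0.38 in WT and at -3.11, -2.73 and -3.27 at 9 months, a fall of 2.75 on the log2 scale (SE 0.16). BQ128792_P1 lay at 0.93 and 0.78 in WT and at -2.07, -1.72 and -1.61 at 9 months, a fall of 2.65 (SE 0.13). For both, the 3 samples at 9 months were the lowest of all 11. CD563094_P1 lay at -4.78, -5.10 and -5.44, was detected on no 9-month array and was at least 4.49-fold lower than in WT, with a log2 difference of -1.09 by normexp, short of this bound. CN686219_P1, detected at 1 month on all arrays, was called lower at 9 months than in WT, but neither group detected it.

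**Figure D3:**
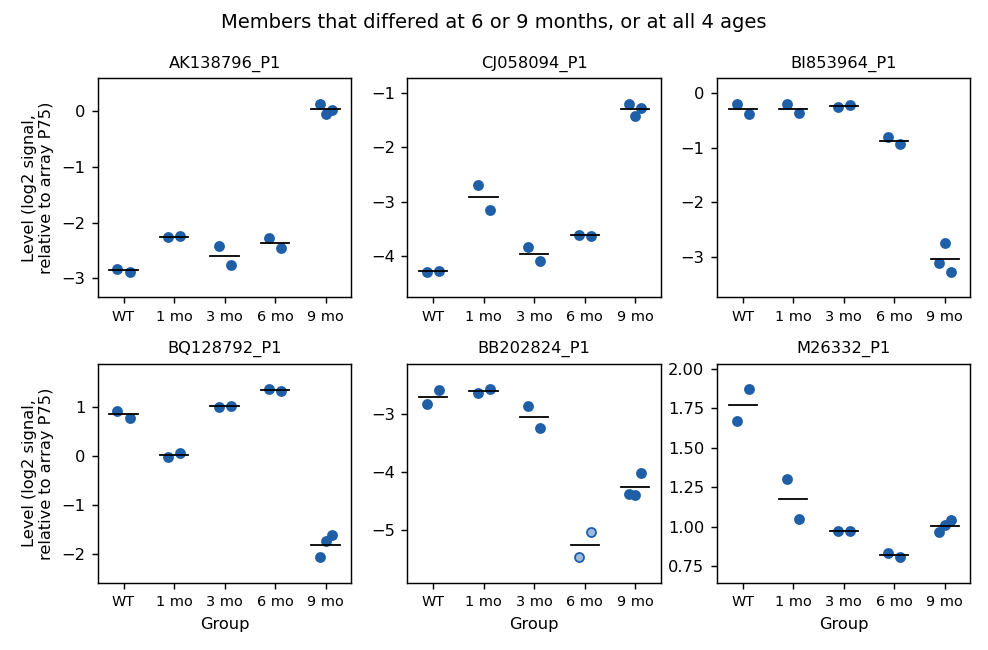
Levels (y axis, log2 signal relative to the array's 75th percentile) of 6 members in each of the 11 samples, by group; bars are group means, filled points are groups detected on all arrays and pale points are groups detected on some. AK138796_P1 and CJ058094_P1 are highest and BI853964_P1 and BQ128792_P1 lowest in the 3 samples at 9 months, and M26332_P1 is highest in the WT samples.

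The count of 208 at 9 months was 131 without WT replicate 1 and 126 without WT replicate 2. Quantile normalization gave 87 higher and 128 lower, and normexp 54 and 212. Over all probes, 8474 were higher and 6718 lower in the main fit. Quantile normalization gave 7349 and 8031 there, and normexp 5694 and 11459. The 9-month values rest on arrays with a scan setting of their own, as given above.

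Comparing 6 months with 1 month sets transgenic mice of different ages against each other and uses no WT sample in the difference. It found 68 members higher and 46 lower at 6 months (9.18% and 6.21%), beside 14% and 10.1% of all probes. BC040767_P1 was at least 27.3-fold lower at 6 months than at 1 month, a bound since no array at 6 months detected it. Its limma adjusted p of 2.1e-07 rests in part on floor values at 6 months, whose spread is not a measured size. Normexp gave a log2 difference of -2.78, short of this bound. BC040767_P1 was also at least 32.9-fold higher at 9 than at 6 months, a value given without a test. BC156060_P1 was at least 11.8-fold and CJ317124_P1 at least 2.72-fold higher at 6 months. With normexp their log2 differences were 2.03 and 0.76, below these bounds, and the call of CJ317124_P1 was lost. Both passed the filter on dim probes only through 6 months, so these calls add no support. AK139568_P1 lay at 0.81 and 0.63 at 6 months and rose by 3.17 on the log2 scale (SE 0.08, limma adjusted p = 5.4e-07). AA915284_P1 rose by 2.47 (SE 0.34), from -3.95 and -3.93 to -2.10 and -0.85, with more than 1 log2 unit between the samples at 6 months.

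BB202824_P1 fell by 2.65 on the log2 scale (SE 0.20) between 1 and 6 months, having lain at -2.63 and -2.57 at 1 month. CN686219_P1 fell by 2.36 (SE 0.28) and was detected on 1 of 3 arrays at 6 months. AV495601_P1, at -4.66 and -4.75 at 1 month and detected on no array at 6 months, was at least 1.42-fold lower. Its call was lost with normexp (log2 difference -0.42). CN686219_P1 and AV495601_P1 passed the filter on dim probes only through 1 month, where they were high, so these calls add no support. The count of 114 was 69 without 1 month replicate 1, 35 with the 2 groups alone and 65 with normexp (41 higher and 24 lower). Quantile normalization gave 60 higher and 56 lower. Against WT, 11 members (1.48% of those tested) were called in opposite directions at 1 and 6 months, beside 2.05% of all probes.

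**Figure D4:**
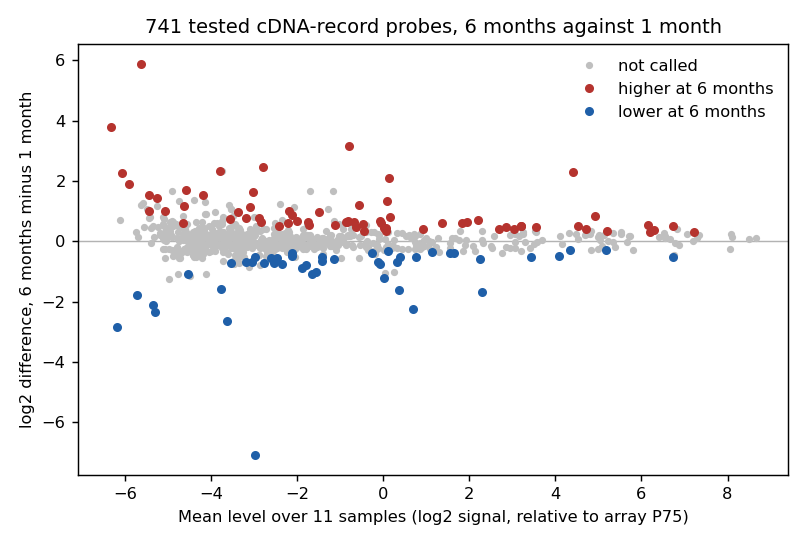
Log2 difference between 6 months and 1 month (y axis) against the mean level over the 11 samples (x axis, log2 signal relative to the array's 75th percentile) for the 741 tested members; red points are the 68 called higher at 6 months, blue points the 46 called lower, grey points the rest. BC156060_P1 at 5.89 and BC040767_P1 at -7.10 are the extremes, and in each the dimmer group was not detected. Its values are shared with another undetected probe, so these differences are not sizes of a measured change.

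Some members were called in the same direction at every age. Against the same WT samples, 12 members (1.62% of those tested) were higher and 1 (0.135%) lower at all 4 ages, beside 1.28% and 0.27% of all probes. These comparisons share their controls. The 4 whose smallest rise was largest (CR518586_P1, AI503337_P1, AA791803_P1 and CA465684_P1) were detected on no WT array. AA791803_P1 and CA465684_P1 passed the filter on dim probes only through 6 months, where they were higher than WT. Their calls at 6 months therefore add no support. At 3 months AA791803_P1 was detected on no array either, so its value there is not a measured change. The 3-month calls of CR518586_P1 and AA791803_P1 were lost in 13 and 10 of 23 alternatives, among them without WT replicate 1 (limma adjusted p = 0.171 and 0.130) and without 3 months replicate 1 (0.191 and 0.130). Normexp turned all 16 differences of these 4 members to below 0. The one that was lower, M26332_P1, was detected on every array. It lay at 1.66 and 1.87 in WT, 1.30 and 1.05 at 1 month, 0.97 and 0.97 at 3 months, 0.83 and 0.80 at 6 months, and 0.97, 1.01 and 1.04 at 9 months. Both WT samples lay above the other 9. It fell by 0.59 (SE 0.10), 0.80 (SE 0.10), 0.95 (SE 0.10) and 0.76 (SE 0.10) on the log2 scale at 1, 3, 6 and 9 months. The 1-month call was lost without 1 month replicate 2 and without WT replicate 2 (limma adjusted p = 0.0758 and 0.0644). A fit of the 2 groups alone lost it too (0.153), as did one that left out all 9-month arrays (0.0572). The 3-month call was lost in the fit of its 2 groups (0.0917).

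The sign of many rises against WT depended on the background correction. With normexp 18 of 39 rises at 1 month, 16 of 48 at 3 months, 45 of 95 at 6 months and 42 of 110 at 9 months changed sign. Of these, 16, 15, 40 and 40 were in the dimmer members. Of the falls, 1 of 37 at 6 months changed sign and 0 at the other ages. Normexp lowered the median difference of all probes against WT to between -0.23 and -0.14, from between 0.01 and 0.07. In 6 months against 1 month, where that median was 0.01, 0 of 114 called members changed sign. Sign changes were counted for the members alone, and the part of the median shift in them was not tested.

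**Figure D5:**
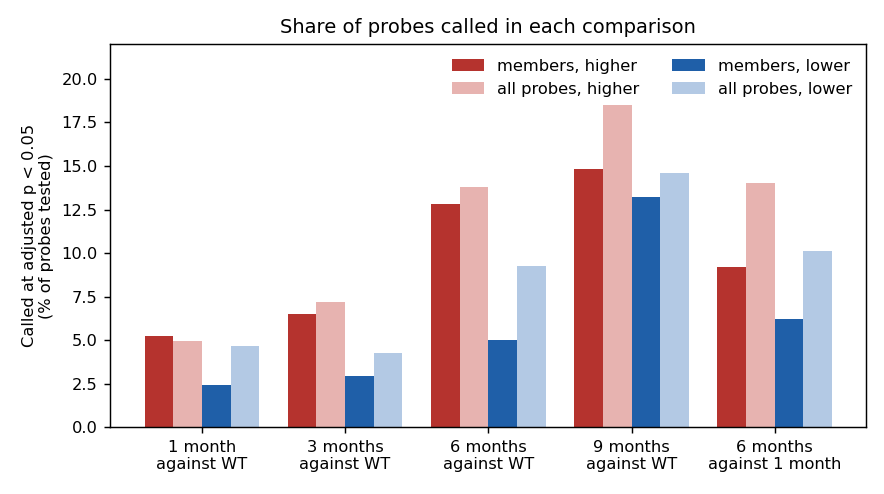
Percent of tested probes called higher (red) or lower (blue) in each of the 5 comparisons (x axis), for the 741 members (dark bars) and all 45901 probes (pale bars). The members' shares run from 2.43% to 14.8% and exceed that of all probes in 1 of the 10 pairs of bars, the rises at 1 month (5.26% and 4.95%).

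By kind of record, 45 of 72 tested AK records (62.5%) were called in at least 1 of the 5 comparisons, as were 7 of 12 BC records (58.3%). Among ESTs, 83 of 208 tested DDBJ records (39.9%) and 147 of 406 GenBank records (36.2%) were called. The AK and BC records were also detected more often, and the part of that in these shares was not tested. Over all kinds, 302 of 741 tested members (40.8%) were called in at least 1 comparison and 439 in none, beside 49.6% of all probes called in at least 1.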

How the data were processed

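The submitters' processing notes name Agilent Feature Extraction 10.7.1.1 as the source of the deposited intensity of each spot. The processed signal and the 0 or 1 flags for each spot were taken from the deposited scanner files; build and annotation are not given in the sources used here. A deposited value table equalled the mean local background intensity in all 62513 rows of each of the 14 arrays within 0.001 (medians of linear intensity 27.9 to 32.6, and 36.8 for the third WT sample, which could not be compared), so it holds no expression values, no centring was found and a direction does not apply. It was not used.

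The 1200 spots of 20 negative probes and control spots were left out, as were 134 single-spot probes flagged on any array. The log2 of the intensity minus the array's 75th percentile (384 to 566 intensity units) was fitted with limma 3.58.1 in R 4.3.3 over 45901 probes, 11 samples and 5 groups, with Benjamini-Hochberg adjustment over all probes and calls at an adjusted p under 0.05. Arrays of one group whose residuals over negative probes correlated above 0.5 were averaged. This rule replaced the planned one, a difference below the scanner's own error, which every within-group pair met. The number of arrays limits the precision. On simulated data for 1 month against WT (45901 probes, 200 changed), 55% of 2-fold and 79.5% of 4-fold changes were recovered. The simulated spreads were those of all tested probes, with a median of 0.15 against 0.21 for the members. The data had 2273 higher and 2144 lower calls in this comparison, more than the changes simulated. Recovery among the members was therefore not measured.

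Alternatives changed the background correction, normalization, filter, flags, averaging, scan block, samples, variance trend and sex. Normexp (offset 50) used the median signal, since the files hold no mean signal column. The test of labelled sex and the count of signs turned by normexp were chosen after seeing the data. Named were the 4 largest rises and falls per comparison among called members whose samples do not overlap, the 6 of highest level, and up to 4 per direction called at all 4 ages. Members, lists and rules were chosen with earlier results of these data known. Replicate numbers follow accession order and pair no samples.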

Additional observations from a re-analysis of the deposited data

Results flagged for a closer look

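For 11 members the differences from WT at 1 and at 6 months were both called by limma and had opposite signs. They make up 1.48% of the 741 tested members, beside 2.05% of all 45901 probes. They were picked out after their values were seen, and both differences use the same WT samples. The difference between these ages was called in each, which follows from that choice and adds no support. The 6-month minus 1-month values on the log2 scale were -7.10 for BC040767_P1, -2.26 for AK039249_P1 and -0.69 for CK371969_P1. They were 0.65 for AK011498_P1, 0.79 for CA329087_P1, 0.84 for AK122515_P1, 1.21 for BC018397_P1, 1.33 for BQ128792_P1, 2.29 for AV038163_P1, 3.17 for AK139568_P1 and 5.89 for BC156060_P1. The lower values at 6 months of BC040767_P1 and the lower values at 1 month of BC156060_P1 came from groups that did not detect them, so the opposite sign against WT is not a measured change for these. Several of the differences from WT lay near the threshold: the limma adjusted p was 0.0456 and 0.0447 for CK371969_P1 and 0.0373 and 0.0470 for CA329087_P1 at 1 and 6 months, and the calls of BQ128792_P1 were lost in 4 of 23 alternatives at 1 month and in 11 of 23 at 6 months.

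AV038163_P1, an EST detected on all 14 arrays, lay at 4.64 and 4.70 in WT, 3.53 and 3.45 at 1 month, 4.88 and 4.81 at 3 months, 5.89 and 5.67 at 6 months and 3.62, 3.66 and 3.79 at 9 months. It was thus low at 1 and 9 months and high at 6 months, with no overlap between 1 month, WT and 6 months. AK122515_P1 lay at 4.97 and 4.93 in WT, 4.53 and 4.50 at 1 month and 5.39 and 5.32 at 6 months. BC018397_P1 lay at -0.40 and -0.25 in WT, -1.15 and -0.97 at 1 month and 0.26 and 0.04 at 6 months.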

How the results depend on the processing

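With all 14 arrays as separate samples the members called numbered 138 at 1 month, 131 at 3 months and 228 at 6 months against WT, and 203 for 6 months against 1 month. With separate arrays, the scan setting as a block and no 9-month arrays, changed together, they numbered 101 at 1 month, 200 at 6 months and 193 for 6 months against 1 month. With the 2 groups alone they numbered 7, 8 and 27 at 1, 3 and 6 months and 35 for 6 months against 1 month. Without the 9-month arrays they were 33 at 1 month and 41 at 3 months. At 3 months they were 46 with no filter and 33 with normexp, and for 6 months against 1 month 65 with normexp. Leaving out 1 sample gave 22 to 65 at 1 month, 34 to 72 at 3 months, 74 to 124 at 6 months, 126 to 217 at 9 months and 69 to 115 for 6 months against 1 month. The other alternatives stayed within 1.5 times the main count. Of 92 calls of named members, 31 were kept in all alternatives. Of 2070 alternative values, 1783 kept their direction and call, 261 lost the call and 26 changed sign, all with normexp. In the order 1, 3, 6 and 9 months against WT these were -0.50, -0.39, -0.46 and -0.27 for AA791803_P1, -0.44, -0.17, -0.50 and -0.49 for AI503337_P1, -0.43, -0.14, -0.42 and -0.45 for CA465684_P1, and -0.10, -0.046, -0.21 and -0.32 for CR518586_P1. At 1 and 6 months they were -0.13 and -0.52 for AF282719_P1, -0.020 and -0.14 for AK138796_P1, and -0.052 and -0.38 for CJ058094_P1. At 6 months they were -0.022 for BI180507_P1, -0.013 for BU962743_P1 (-0.23 at 9 months) and -0.093 for CJ317124_P1. The cause was not tested. No paired analysis was possible because the replicate numbers come from accession order. The median spread between samples was 0.34 among the dimmer and 0.13 among the brighter members tested.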
